A study of Mus musculus with 48 samples.

Results

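The genes described here are the mouse Fc gamma receptor genes Fcgr1, Fcgr2b, Fcgr3 and Fcgr4, the shared signaling chain gene Fcer1g and the neonatal Fc receptor gene Fcgrt, 6 genes chosen by name among the 55450 genes of the deposited count table. They were followed in RNA from 48 melanoma tumors, 3 tumors in each of 16 conditions, because the IgG and aPD1 arms of the study both received an antibody and the Ctrl arm received nothing. The first experiment held 30 tumors of WT C57BL/6J mice, untreated (Ctrl) at 0hrs, and untreated, IgG-treated or anti-PD-1-treated (aPD1) at D0 (6 hours), D1 and D3. The second experiment held 18 tumors, from WT and iNOS KO mice under the same 3 treatments, which the study places at day 7. Mice came to the laboratory 4 weeks old and were kept for 2 weeks, B16-D5 cells were placed under the skin of the flank 8 days before therapy, and 250 µg of antibody was given on day 0 and again on day 3. B16-D5 is 1 subclone of the mouse melanoma line B16, iNOS KO mice lack the inducible nitric oxide synthase encoded by Nos2, and each library came from the tumor of 1 mouse. Since Ctrl mice were given neither antibody nor vehicle, injection and antibody cannot be told apart in a comparison with Ctrl.

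Fc gamma receptors bind the constant part of IgG on the surface of macrophages, monocytes, neutrophils, natural killer cells and B cells. FcγRI, FcγRIII and FcγRIV, encoded by Fcgr1, Fcgr3 and Fcgr4, are activating receptors that signal through the tyrosine-based activation motif of the common gamma chain (Fcer1g) to the kinase Syk. FcγRIIb (Fcgr2b) carries an inhibitory motif instead and recruits the phosphatase SHIP1, encoded by Inpp5d. The neonatal Fc receptor (Fcgrt) pairs with beta-2 microglobulin, binds IgG in acidic endosomes and returns it to the circulation. In tumors these receptors are known mainly from macrophages, and the way they handle a therapeutic antibody has been studied for checkpoint antibodies.

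Each tumor's group is the one its title gives, and other fields of the labels contradict many titles. The treatment and time fields matched the title in 5 of the 30 tumors of the first experiment, the treatment field matched in 2 of the 18 of the second, and the genotype field reads WT for all 48 tumors although 9 titles give KO. Nos2 ranged from 1.40 to 7.28 CPM, which are counts scaled to the library total, in the WT tumors and from 1.15 to 5.92 CPM in the KO tumors of the second experiment, so a gene-level count did not separate the genotypes. Libraries held 25574203 to 47687872 counts in the first experiment and 11625862 to 40959309 in the second. In 3 libraries, WT aPD1 replicates 3 and 4 and KO Ctrl replicate 1, the level of reads on olfactory, vomeronasal and taste receptor genes, which tumors are not known to use, was 3.87 to 7.83 counts per kb of exon, against 0.0890 to 1.71 in the other 45. Melanoma markers (Mlana, Pmel, Tyr, Tyrp1, Dct and Mitf) summed to 9013 to 19552 CPM in the first experiment, and the leukocyte marker Ptprc reached 26.1 to 205 CPM there. In bulk tissue fewer cells of a type and less RNA per cell cannot be told apart, and the p-values measure the spread between tumors.

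The members lie in 3 places of the genome (GRCm38, GENCODE vM21). Fcgr2b (ENSMUSG00000026656.15, chr1:170958617-170976547), Fcgr4 (ENSMUSG00000059089.4, chr1:171018920-171029761), Fcgr3 (ENSMUSG00000059498.13, chr1:171051174-171064935) and Fcer1g (ENSMUSG00000058715.11, chr1:171229572-171234365) follow one another on chromosome 1, with Fcgr4 alone on the plus strand. Fcgr1 (ENSMUSG00000015947.10, chr3:96282909-96293969) and Fcgrt (ENSMUSG00000003420.8, chr7:45092990-45103851) are on the minus strand of their chromosomes. Fcgr2b and Fcgr3 share 44 windows of 100 identical exonic bases, which make up 0.753% of the windows of Fcgr2b and 2.54% of those of Fcgr3, so reads there could be counted for either gene. No other pair of members shares such a window. Fcgr2b also overlaps Gm38204 on the opposite strand by 155 bases, and the libraries were strand-specific.

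Upstream sequences are shown for Fcgr4, Fcgr1 and Fcgrt, as members with both, 1 and neither of the motifs searched. They come from RefSeq (GRCm38.p6), read 5′ to 3′ toward the start site, and hold the 250 bases before it less any base inside an exon: 244 bases for Fcgr4 (chr1:171018676-171018919, plus strand), 250 for Fcgr1 (chr3:96293970-96294219, minus strand) and 221 for Fcgrt (chr7:45103852-45104072, minus strand). Capitals mark matches, on either strand, to an interferon-stimulated response element core (GAAA, any 2 bases and GAAA again) or the core of the myeloid factor PU.1 (GAGGAA).
Fcgr4: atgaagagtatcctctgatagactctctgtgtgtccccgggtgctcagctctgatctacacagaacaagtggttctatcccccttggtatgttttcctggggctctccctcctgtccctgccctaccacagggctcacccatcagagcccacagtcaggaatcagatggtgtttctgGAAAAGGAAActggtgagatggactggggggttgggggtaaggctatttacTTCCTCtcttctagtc
Fcgr1: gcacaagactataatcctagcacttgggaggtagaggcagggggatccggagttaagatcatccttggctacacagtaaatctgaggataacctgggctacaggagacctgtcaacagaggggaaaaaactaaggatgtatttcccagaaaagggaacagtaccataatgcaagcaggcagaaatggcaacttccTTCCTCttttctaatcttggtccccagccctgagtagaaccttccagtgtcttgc
Fcgrt: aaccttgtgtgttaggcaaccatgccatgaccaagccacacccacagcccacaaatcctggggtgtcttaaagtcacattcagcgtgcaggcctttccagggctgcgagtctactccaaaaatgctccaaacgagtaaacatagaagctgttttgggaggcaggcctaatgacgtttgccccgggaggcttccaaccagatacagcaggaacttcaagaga
The Fcgr4 sequence held the response element core GAAAAGGAAA at -73 from the start and a PU.1 core at -22. The Fcgr1 sequence held a PU.1 core at -55 and no response element core. Fcgrt held neither motif. Of the members not printed, Fcer1g and Fcgr2b held neither motif and Fcgr3 held a PU.1 core at -6 or -15 from its 2 listed starts, and nothing is read from these matches. Of 32851 mouse promoters of this kind, 2.98% held the response element core and 23.3% the PU.1 core, and a match describes letters, not binding.

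All 6 genes were measured in every tumor, with at least 66 counts for a member in any library, and all 6 passed the filter on low counts in both experiments. To compare genes, levels were divided by exonic length, counted over the exons of all transcripts of a gene. That length was 5790 bases for Fcgr2b with 7 transcripts, 1736 for Fcgr3 with 4 and 1256 for Fcgr4 with 1. Per kb, the median level over the 30 tumors of the first experiment was highest for Fcer1g at 38.8 CPM per kb. Fcgrt followed at 20.4, Fcgr3 at 17.6, Fcgr4 at 13.7, Fcgr2b at 7.37 and Fcgr1 at 4.07 CPM per kb. The order was the same in the second experiment, with medians of 28.3, 19.8, 14.5, 9.56, 6.77 and 2.86 CPM per kb. The chain gene was therefore the most abundant transcript per length, and the high-affinity receptor gene Fcgr1 the least. Without division by length the order differed, with first-experiment medians of 42.9 CPM for Fcgrt, 42.7 for Fcgr2b, 33.9 for Fcer1g and 30.5 for Fcgr3. Fcgr4 followed at 17.3 CPM and Fcgr1 at 10.5 CPM.

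Fcgr4 varied most between tumors of the first experiment, by 10.8-fold from 9.36 to 101 CPM, and Fcgrt least, by 3.92-fold. For 5 of the 6 genes the highest mean among the 10 conditions was that of IgG D1, and for Fcgr2b it was that of aPD1 D1. The lowest mean was that of Ctrl D0 for Fcgr1 and Fcgr4 and that of Ctrl D3 for the others. Highest and lowest mean stood 3.48-fold apart for Fcgr4 (47.2 against 13.6 CPM), 2.98-fold for Fcgr1 (18.7 against 6.26 CPM), 2.74-fold for Fcgr3 (57.9 against 21.1 CPM) and 2.52-fold for Fcgr2b (73.6 against 29.2 CPM). Neighbours in the order overlapped throughout: none of the 9 neighbouring pairs of conditions in the first experiment, and none of the 5 in the second, had separate tumors for any of the 6 genes. The plot of levels in the first experiment shows this spread tumor by tumor.

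**Figure D1:**
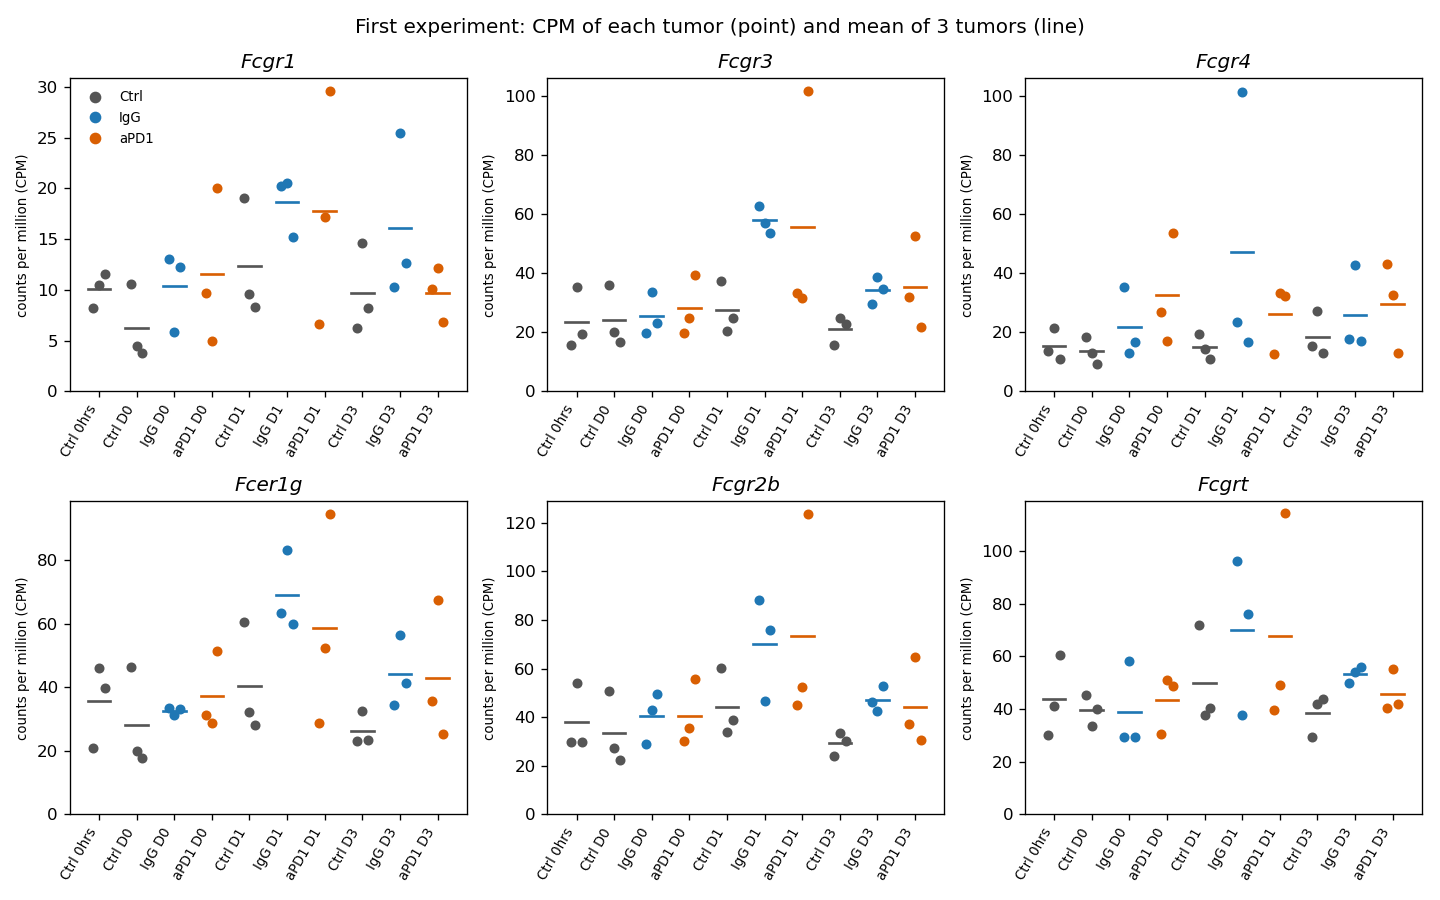
Level of each of the 6 genes in the 30 tumors of the first experiment, in CPM, with 1 point per tumor, a line at the mean of 3 tumors, and colors for Ctrl (grey), IgG (blue) and aPD1 (orange). IgG D1 had the highest mean for every gene but Fcgr2b, and a single IgG D1 tumor reached 101 CPM of Fcgr4.

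The first comparison asks whether tumors of antibody-treated mice differed from untreated ones at the same time, with the mean of the IgG and aPD1 groups set against Ctrl in edgeR's quasi-likelihood test. The point estimate was above 0 for all 6 genes at D0, D1 and D3, where 51.4%, 50.6% and 43.9% of the 26848 genes tested lay above 0. At each time, 0 of the 6 genes passed an adjusted p of 0.05, as did 0% of all genes at D0, 0% at D1 and 0% at D3. DESeq2's Wald test also called 0 of the 6 at each time. At an unadjusted p of 0.05, 3 of the 6 (Fcgr3, Fcgr4 and Fcgr2b) were higher at D1, where 2.53% of all genes were, and 0 were at D0 or D3. Over the 3 times together, 5 of the 6 were higher at that level, all but Fcgrt, against 3.72% of all genes, and all 6 lay above 0, as did 50.3% of all genes. The lowest adjusted p over the 3 times was 0.772, with 0% of all genes called.

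Fcgr3, which encodes the low-affinity activating receptor FcγRIII, stood out at D1. Its levels were 37.4, 20.6 and 24.9 CPM in the Ctrl tumors, 62.9, 57.2 and 53.7 CPM in the IgG tumors and 33.4, 31.5 and 102 CPM in the aPD1 tumors. All IgG tumors lay above all Ctrl tumors, which was the case for 6.26% of all genes and for no other member, while the aPD1 tumors overlapped Ctrl. The antibody tumors were higher by 1.04 on the log2 scale (SE 0.36, edgeR unadjusted p = 0.00868), and by 0.66 without aPD1 D1 replicate 5 (edgeR unadjusted p = 0.0477). IgG and aPD1, which share the Ctrl tumors, were higher by 1.07 and 1.01 on the log2 scale. At D3 the Ctrl tumors held 15.8, 24.9 and 22.8 CPM, the IgG tumors 29.6, 38.6 and 34.5 CPM and the aPD1 tumors 32.1, 52.5 and 21.6 CPM. There 5 of 6 antibody tumors exceeded every Ctrl tumor, and the estimate was 0.72 (edgeR unadjusted p = 0.0561). At D0 the groups overlapped, with 35.98, 19.98 and 16.6 CPM in Ctrl against 19.7 to 39.5 CPM in the antibody tumors, and an estimate of 0.15.

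Fcgr4 encodes FcγRIV, the receptor for IgG2 subclasses on macrophages, monocytes and neutrophils. At D0 its levels were 18.4, 12.9 and 9.36 CPM in Ctrl, 35.4, 12.8 and 16.6 CPM after IgG and 26.9, 16.9 and 53.8 CPM after aPD1. At D1 they were 19.5, 14.3 and 10.8 CPM in Ctrl, 23.4, 101 and 16.8 CPM after IgG and 12.6, 33.2 and 32.4 CPM after aPD1. At D3 they were 15.2, 27.3 and 12.9 CPM in Ctrl, 17.6, 42.9 and 16.9 CPM after IgG and 43.1, 32.7 and 12.9 CPM after aPD1. Each antibody group thus mixed tumors within the Ctrl range of its time with tumors above it, the highest being IgG D1 replicate 4 at 101 CPM, and the groups overlapped at every time. Together, the 18 antibody tumors averaged 30.5 ± 21.5 CPM (SD) and the 9 Ctrl tumors 15.6 ± 5.46 CPM, with 15 of 18 above the Ctrl median. The log2 difference was 0.93 (SE 0.30, 95% interval 0.30 to 1.56, edgeR unadjusted p = 0.00503), the largest of the 6 genes, and it was 0.73 without IgG D1 replicate 4. At D1 alone the difference of 1.24 fell to 0.65 without that tumor (edgeR unadjusted p = 0.163), and that of IgG against Ctrl went from 1.67 to 0.48.

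Fcgr1 encodes the high-affinity receptor FcγRI. Its 3 Ctrl tumors at D0 held 10.6, 4.41 and 3.77 CPM, against 13.02, 5.85 and 12.3 CPM after IgG and 9.74, 4.92 and 20.1 CPM after aPD1. At D1 Ctrl held 19.03, 9.61 and 8.28 CPM, IgG 20.3, 20.5 and 15.2 CPM and aPD1 6.59, 17.2 and 29.6 CPM. At D3 the values were 6.26, 14.6 and 8.23 CPM in Ctrl, 10.3, 25.5 and 12.6 CPM after IgG and 10.1, 12.2 and 6.85 CPM after aPD1. Ctrl overlapped both arms at each time. Over D0, D1 and D3 the antibody tumors averaged 14.05 ± 6.93 CPM and the Ctrl tumors 9.42 ± 4.88 CPM (SD, 18 and 9 tumors), with a log2 difference of 0.58 (SE 0.26, edgeR unadjusted p = 0.0369), and 14 of 18 lay above the Ctrl median.

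Fcer1g, the gamma chain without which the activating receptors do not reach the surface or signal, was measured at 60.6, 32.3 and 28.1 CPM in the D1 Ctrl tumors, 63.6, 83.4 and 60.03 CPM after IgG and 28.8, 52.3 and 94.8 CPM after aPD1. At D3 it was at 22.96, 32.5 and 23.5 CPM in Ctrl, 34.5, 56.5 and 41.4 CPM after IgG and 35.8, 67.7 and 25.3 CPM after aPD1. The IgG tumors at D3 all exceeded the Ctrl tumors. Over the 3 times, 17 of 18 antibody tumors lay above the Ctrl median, the most of any member, with means of 47.4 ± 20.2 and 31.6 ± 13.9 CPM (SD) and a log2 difference of 0.57 (SE 0.21, edgeR unadjusted p = 0.0125).

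Fcgr2b, the inhibitory receptor gene, differed between the arms by about as much as Fcgr1, Fcgr3 and Fcer1g. Ctrl tumors held 60.4, 33.9 and 38.8 CPM at D1, IgG tumors 88.3, 46.5 and 75.7 CPM and aPD1 tumors 44.8, 52.2 and 124 CPM. At D3 the values were 24.01, 33.3 and 30.3 CPM in Ctrl, 46.3, 42.6 and 52.7 CPM after IgG and 37.1, 64.7 and 30.4 CPM after aPD1. There 5 of 6 antibody tumors exceeded every Ctrl tumor. Together the log2 difference was 0.54 (SE 0.19, edgeR unadjusted p = 0.00929), from means of 52.7 ± 23.6 and 35.7 ± 12.6 CPM (SD, 18 and 9 tumors).

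Fcgrt, which carries IgG rather than signaling for it, had the smallest difference over the 3 times. The 18 antibody tumors averaged 53.2 ± 22.5 CPM and the 9 Ctrl tumors 42.7 ± 12.1 CPM (SD), with a log2 difference of 0.29 (SE 0.18, edgeR unadjusted p = 0.125). At D3 its 3 IgG tumors held 49.9, 54.2 and 55.8 CPM, above the 29.2, 42.1 and 43.8 CPM of Ctrl. The same separation of IgG from Ctrl at D3 was seen for Fcgr2b, Fcgr3 and Fcer1g, so in 4 of the 6 members, and in 6.53% of all genes.

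The antibody difference was not shown to depend on time. The change of the difference from D0 to D1 was largest for Fcgr3, at 0.89 on the log2 scale (edgeR unadjusted p = 0.0842, the lowest of these tests). The aPD1 and IgG tumors did not differ past an unadjusted p of 0.05 for any member at D0, D1 or D3, the lowest edgeR p being 0.154 for 18 comparisons. Untreated tumors at D0, D1 and D3 did not differ from those at 0hrs either, with a lowest unadjusted edgeR p of 0.198. Intervals at a single time were wide: at D0 that of Fcgr1 ran from -0.16 to 1.78.

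**Figure D2:**
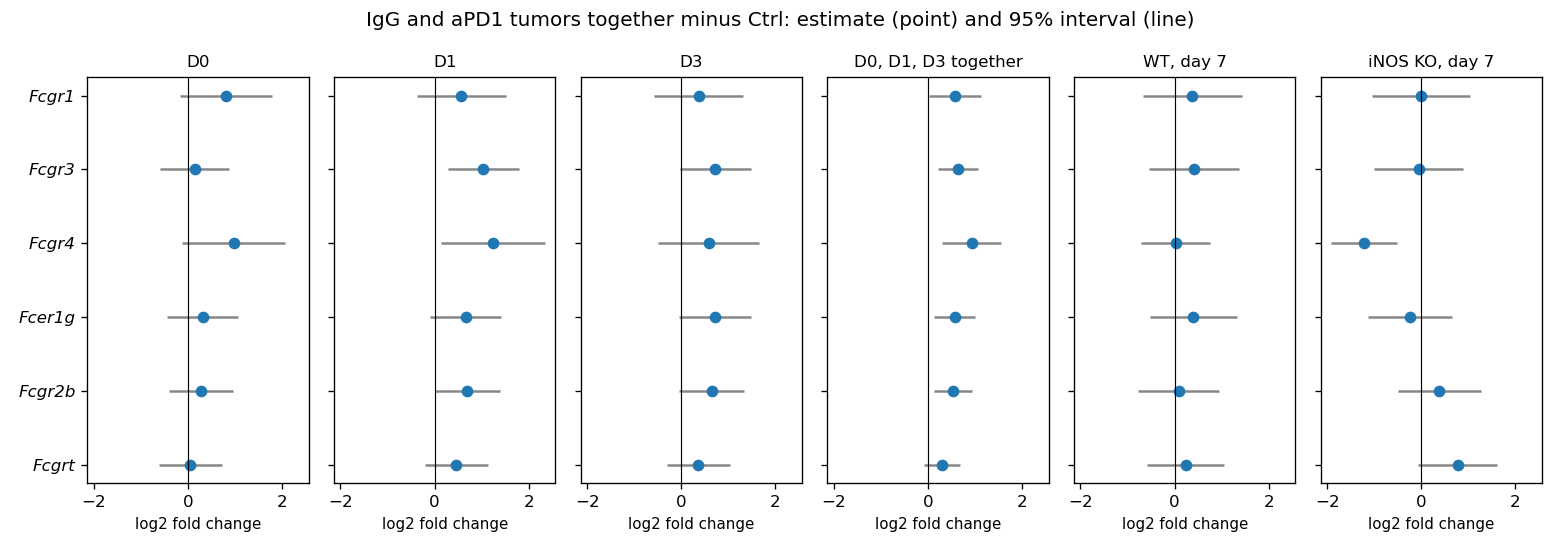
Log2 fold change of the antibody tumors (IgG and aPD1 together) over Ctrl for each of the 6 genes, as points with 95% intervals, in 6 panels for D0, D1, D3, the 3 times together, WT and iNOS KO. All points of the first experiment lie above 0, and in iNOS KO the interval of Fcgr4, from -1.92 to -0.52, lies below 0.

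In the second experiment, at day 7, the antibody tumors of WT mice overlapped Ctrl for every member. Fcgr4 was at 10.6, 16.5 and 11.9 CPM in WT Ctrl, 9.74, 9.67 and 18.97 CPM in WT IgG and 17.1, 11.6 and 12.1 CPM in WT aPD1, a log2 difference of 0.02 with a 95% interval from -0.71 to 0.75. Fcgr3 was at 12.5, 32.7 and 22.8 CPM in Ctrl, 19.3, 36.5 and 76.4 CPM after IgG and 27.7, 16.8 and 16.97 CPM after aPD1. A single WT IgG tumor, replicate 3, held the highest level of the experiment for Fcgr1, Fcgr2b, Fcgr3, Fcer1g and Fcgrt. The edgeR test called 0 of the 6 and 0% of 30837 genes, with 0 of the 6 at an unadjusted p of 0.05 (lowest 0.359), and DESeq2's Wald test called 0 of the 6. The estimates ran from 0.02 to 0.41, all 6 above 0, while 67.5% of all genes were above 0 and their median was 0.55. By arm, the median of all genes was 0.14 for IgG against Ctrl and 0.96 for aPD1 against Ctrl. The median of the 6 members was 0.75 for IgG and -0.16 for aPD1. The WT aPD1 arm includes libraries of high background, and their part in these medians is not given here.

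In iNOS KO mice Fcgr4 stood apart from the other members. Its levels were 27.9, 12.5 and 31.4 CPM in the Ctrl tumors, 9.49, 8.87 and 15.8 CPM in the IgG tumors and 8.69, 4.45 and 14.4 CPM in the aPD1 tumors. All 6 antibody tumors lay below the Ctrl median and 4 of them below every Ctrl tumor, yet the groups overlapped through KO Ctrl replicate 2. The antibody tumors were lower by -1.22 on the log2 scale (SE 0.32, 95% interval -1.92 to -0.52, edgeR unadjusted p = 0.00111), which missed the threshold after adjustment (edgeR adjusted p = 0.0561). In this comparison 0 of the 6 members and 1.64% of all genes were called, and 28.8% of all genes were lower at an unadjusted p of 0.05, with a median of -0.47 over all genes. DESeq2's Wald test did call Fcgr4 (DESeq2 adjusted p = 0.0212).

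Whether Fcgr4 in KO tumors passed the threshold depended on single libraries. Without KO Ctrl replicate 2 the difference was -1.52 (edgeR adjusted p = 0.00411), without KO aPD1 replicate 3 it was -1.46 (edgeR adjusted p = 0.00769), and without KO IgG replicate 3 it was -1.37 (edgeR adjusted p = 0.0257). Without KO Ctrl replicate 4 it was -0.95 (edgeR adjusted p = 0.0626), and without the 3 libraries of high background it was -1.09 (edgeR adjusted p = 0.252), so its sign held while its call did not. Across the 9 fits that each left out 1 KO tumor, the edgeR adjusted p ran from 0.00411 to 0.150. With all tumors, both arms, which share the Ctrl tumors, were on the same side, at -1.07 for IgG (edgeR adjusted p = 0.303) and -1.38 for aPD1 (edgeR adjusted p = 0.220).

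The other 5 genes in KO tumors were spread around 0, and 2 of the 6 members lay above 0, as did 32.6% of all genes. Fcgr1 was at -0.00, Fcgr3 at -0.05 and Fcer1g at -0.24 on the log2 scale. Fcgrt lay on the other side from Fcgr4, with 22.3, 26.5 and 35.8 CPM in Ctrl, 39.8, 59.6 and 53.3 CPM after IgG and 60.1, 24.98 and 51.6 CPM after aPD1. Its 3 IgG tumors exceeded all Ctrl tumors, as for 8.02% of all genes and no other member, and its difference was 0.77 (edgeR unadjusted p = 0.0606, edgeR adjusted p = 0.171). Fcgr2b, at 23.4, 29.5 and 37.6 CPM in Ctrl and 16.99 to 59.0 CPM after antibody, differed by 0.38.

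Whether the antibody difference itself depended on the host genotype was tested as an interaction. For Fcgr4 it was lower in KO than in WT by -1.24 on the log2 scale (SE 0.47, edgeR unadjusted p = 0.0160, edgeR adjusted p = 0.0704). It was also -1.24 without the 3 libraries of high background, a fit that leaves only replicate 2 in the WT aPD1 group. It was called with no filter on low counts (-1.12, edgeR adjusted p = 0.00955), without KO Ctrl replicate 2 (-1.50, edgeR adjusted p = 0.0217) and without KO aPD1 replicate 3 (-1.44, edgeR adjusted p = 0.0394). No other member passed an unadjusted p of 0.05 in that test. Untreated tumors entered this difference: Fcgr4 was higher in KO Ctrl than in WT Ctrl by 0.88 (SE 0.39, edgeR unadjusted p = 0.0339, edgeR adjusted p = 0.299), where 13.1% of all genes were higher at an unadjusted p of 0.05. After IgG or aPD1 the KO and WT tumors did not differ past that level for any member, with lowest unadjusted edgeR p of 0.133 and 0.160.

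Between aPD1 and IgG in WT tumors, 5 of the 6 members were lower after aPD1, with a median of -0.95. Of the 30837 genes tested, 21171 lay above 0, with a median of 0.68, so most genes were on the other side. Fcer1g was at 35.5, 9.57 and 10.2 CPM after aPD1 and at 26.1, 28.9 and 68.9 CPM after IgG, a log2 difference of -1.15 (edgeR unadjusted p = 0.0277). Fcgr3 differed by -1.10 (edgeR unadjusted p = 0.0427) and Fcgr2b by -0.99 (edgeR unadjusted p = 0.0441), and these 3 were lower at an unadjusted p of 0.05, as were 5.75% of all genes. None passed adjustment (lowest edgeR adjusted p = 0.305), and 0% of all genes were called, whereas with no filter on low counts Fcer1g (-1.19, edgeR adjusted p = 0.000328), Fcgr3 (-1.16, edgeR adjusted p = 0.000445), Fcgr2b (-1.04, edgeR adjusted p = 0.000972) and Fcgrt (-0.94, edgeR adjusted p = 0.00366) were called. The share of all genes called with no filter is not given here. The low values came from WT aPD1 replicates 3 and 4, the libraries with the highest background. Leaving out the 3 libraries of high background keeps only replicate 2 in the WT aPD1 arm. In that fit, with 1 aPD1 tumor, Fcer1g differed by -0.21, Fcgr2b by -0.20 and Fcgr3 by -0.65. Without WT aPD1 replicate 2, which leaves only those 2 libraries in the arm, Fcer1g (-2.07, edgeR adjusted p = 0.0104), Fcgrt (-1.57, edgeR adjusted p = 0.0259) and Fcgr2b (-1.64, edgeR adjusted p = 0.0317) were called. With the background subtracted Fcer1g differed by -1.08 (edgeR adjusted p = 0.294), and with its level as a covariate by -1.09 (edgeR adjusted p = 0.705).

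**Figure D3:**
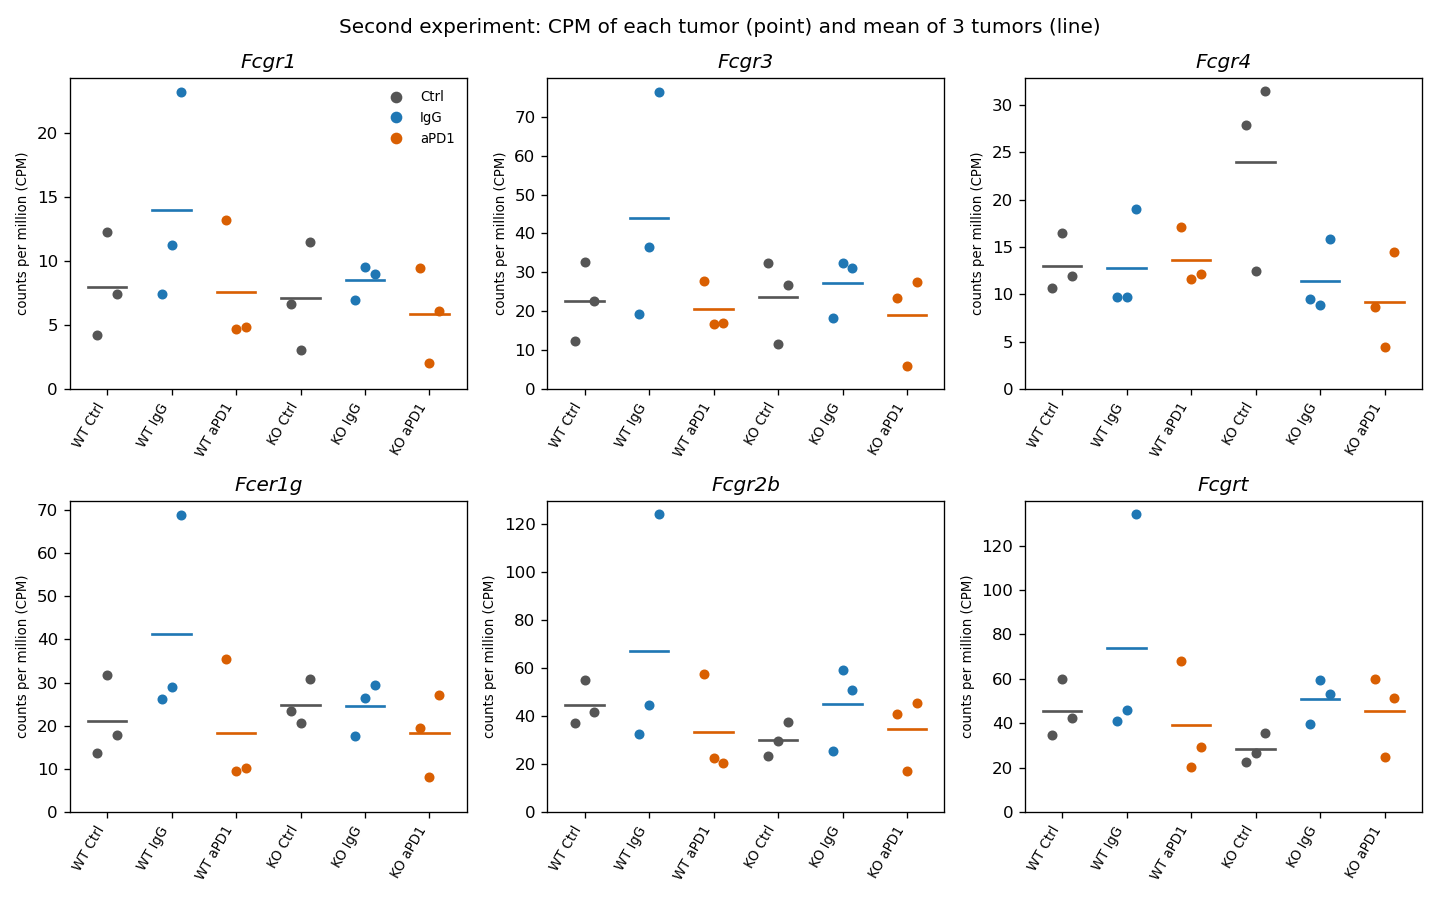
Level of each of the 6 genes in the 18 tumors of the second experiment, in CPM, with 1 point per tumor, a line at the mean of 3 tumors, and colors for Ctrl (grey), IgG (blue) and aPD1 (orange) in WT and iNOS KO mice. Fcgr4 has its highest mean in KO Ctrl, at 23.9 CPM, and the other genes have theirs in WT IgG.

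Levels of activating and inhibitory receptors were also set against each other within each tumor, as a ratio of CPM per kb with no test. The size of these ratios depends on the exonic lengths, which count the exons of all transcripts of a gene. Fcgr3 stood at a median of 2.36 times Fcgr2b in the first experiment (1.57 to 4.10 over the 30 tumors) and 2.00 times in the second (1.11 to 4.62). The 4.62 was that of KO Ctrl replicate 1, a library of high background. Fcgr1 stood at 0.546 times Fcgr2b (0.306 to 1.34) and 0.479 times (0.234 to 0.685). The ratio of Fcgr4 to Fcgr2b had a median of 1.95 in the first experiment but ran from 1.02 to 10.1, with the highest value in IgG D1 replicate 4 beside 1.02 and 1.22 in the other IgG D1 tumors. In KO Ctrl the ratio was 1.95, 3.85 and 5.49, against 0.693 to 1.72 in KO IgG and 0.982 to 1.46 in KO aPD1. It was 1.32 to 1.38 in WT Ctrl, 0.705 to 1.39 in WT IgG and 1.37, 2.37 and 2.73 in WT aPD1. The 5.49 belonged to KO Ctrl replicate 1, and 2.37 and 2.73 to WT aPD1 replicates 3 and 4, all libraries of high background. Those 2 WT aPD1 values exceeded the 1.95 of KO Ctrl replicate 2. The ratio of Fcgr4 to Fcgr2b was thus higher in each KO Ctrl tumor than in any antibody-treated KO tumor, whereas that of Fcgr3 to Fcgr2b spread less. Fcer1g over the sum of the 3 activating receptors was close to even, with a median of 1.13 (0.723 to 1.86) in the first experiment and 0.991 (0.529 to 1.38) in the second.

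**Figure D4:**
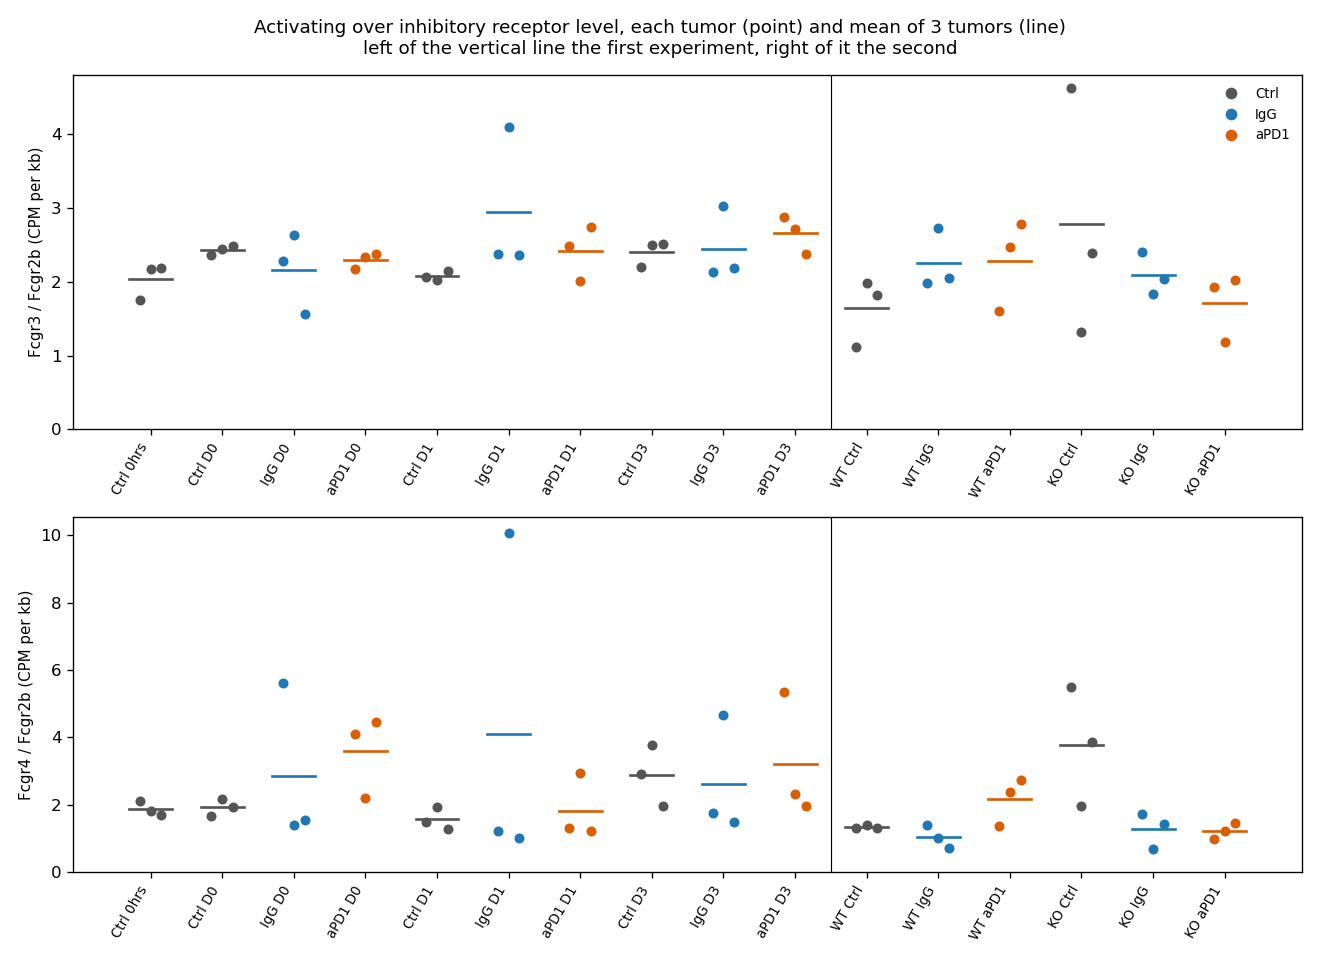
Ratio of CPM per kb of Fcgr3 and of Fcgr4 to that of Fcgr2b in each of the 48 tumors by condition, with a vertical line between the 2 experiments. The Fcgr4 ratio spreads from 0.693 to 10.1, with the KO Ctrl tumors at 1.95, 3.85 and 5.49, while the Fcgr3 ratio stays between 1.11 and 4.62. The 5.49 and the 4.62 are those of KO Ctrl replicate 1, a library of high background.

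The genes that carry the receptor signal were taken from a fixed list of 18 kinases, adaptors and oxidase subunits. Over D0, D1 and D3 together, all 18 had a point estimate above 0 in the antibody tumors (50.3% of all genes). Of the 18, 11 had an unadjusted p under 0.05 (3.72% of all genes higher) and 0 passed adjustment. Their median was 0.53 against 0.00 for all genes. By the lowest p the first were the adaptor gene Lcp2 (0.70, edgeR unadjusted p = 0.00427), the PI3-kinase subunit gene Pik3r5 (0.66, edgeR unadjusted p = 0.00458), the oxidase gene Cybb (0.77, edgeR unadjusted p = 0.00691) and the kinase gene Lyn (0.48, edgeR unadjusted p = 0.00703). Syk was at 0.65 (edgeR unadjusted p = 0.0266). At D1 all 18 were above 0 and 10 had an unadjusted p under 0.05, at D3 all 18 and 5, and at D0 13 and 0. Of all genes, 50.6% lay above 0 at D1, 43.9% at D3 and 51.4% at D0, and 2.53% were higher at that p at D1. In the second experiment 17 of 18 were above 0 in WT (67.5% of all genes), 3 of them with an unadjusted p under 0.05 (12.9% of all genes higher) and a median of 0.71, and 12 of 18 in KO (32.6% of all genes), with none under 0.05 and a median of 0.14.

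The 9 genes of inhibitory signaling showed smaller differences. Together 8 of 9 were above 0 (50.3% of all genes), 4 had an unadjusted p under 0.05 (3.72% of all genes higher) and 0 passed adjustment. Their median was 0.26. Inpp5d, the SHIP1 gene, was at 0.26 (edgeR unadjusted p = 0.0303) and Ptpn6, the SHP-1 gene, at 0.23 (edgeR unadjusted p = 0.0819). In KO tumors Inpp5d was at 0.42 (edgeR unadjusted p = 0.0537) and Ptpn6 at -0.07. In WT tumors of the second experiment 5 of 9 were above 0, against 67.5% of all genes. That WT comparison, here and for the activating list above, includes aPD1 libraries of high background.

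Relatives of the gamma chain and other Fc binders varied more. Of 11 receptors and adaptors that use or resemble the chain, 10 were above 0 over the 3 times (50.3% of all genes), with a median of 0.55. The adaptor gene Tyrobp, at 0.53 (edgeR unadjusted p = 0.0415), was the 1 with an unadjusted p under 0.05 (3.72% of all genes higher). In KO tumors 1 of the 11 was above 0 (32.6% of all genes), with a median of -1.28. There 2 had an unadjusted p under 0.05, both lower, against 28.8% of all genes. Of 12 other Fc receptors and binders, 7 were above 0 over the 3 times (50.3% of all genes), with a median of 0.11. In KO tumors 1 of the 11 tested was above 0 (32.6% of all genes), with a median of -2.71. There 5 were lower at an unadjusted p of 0.05, against 28.8% of all genes. KO Ctrl replicate 1, a library of high background, had the highest mean log2 level of these 12 genes among the KO tumors, 0.94, against -0.25 and 0.11 in the other KO Ctrl tumors and -0.09 or less after antibody. In a tumor, 1 to 7 of these 12 were at 0 in the first experiment and 0 to 9 in the second. Trim21, the cytosolic antibody receptor gene, was at 0.51 over the 3 times (edgeR unadjusted p = 0.0338) and at -0.51 in KO (edgeR unadjusted p = 0.0380). Of the partners of the neonatal Fc receptor, B2m was at 0.11 over the 3 times (edgeR unadjusted p = 0.543) and at -0.77 in KO (edgeR unadjusted p = 0.0337), while Alb was at 0 in 13 of 30 and 13 of 18 tumors. None of these lists had a gene past the adjusted threshold in an antibody comparison.

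Markers of the cells that carry the receptors moved with these results in part. The 12 macrophage and monocyte markers summed to 386 to 2038 CPM (median 774) in the antibody tumors of the first experiment and to 319 to 1051 CPM (median 490) in Ctrl. Of the 12, 11 were above 0 over the 3 times (50.3% of all genes), 7 with an unadjusted p under 0.05 (3.72% of all genes higher). Their median was 0.52. In KO tumors they summed to 165 to 786 CPM after antibody and 311 to 459 CPM in Ctrl. There 11 of 12 were above 0 (32.6% of all genes), with a median of 0.49, so these markers and Fcgr4 were on opposite sides. Natural killer markers, by contrast, had a median sum of 2.53 CPM after antibody and 9.05 CPM in KO Ctrl. B cell markers had 8.52 and 13.3 CPM and neutrophil markers 5.64 and 6.27 CPM. These sums were lower after antibody with overlapping ranges, and only 32.6% of all genes lay above 0 there. The KO Ctrl tumors include replicate 1, a library of high background. Among these cell types only neutrophils are named above as carriers of Fcgr4. The part of these cell types in the Fcgr4 difference was not tested. Natural killer markers summed to 7.79 to 51.3 CPM after antibody and 5.79 to 28.5 CPM in Ctrl in the first experiment, and neutrophil markers to 1.72 to 17.1 against 3.28 to 7.90 CPM, with S100a8 at 0 in 20 of 30 tumors and Ly6g in 23 of 30. B cell markers summed to 3.86 to 10.4 CPM after antibody and 2.28 to 9.72 CPM in Ctrl. The neutrophil sums were largely those of 1 gene, Csf3r. Over the 30 tumors Csf3r ran from 1.72 to 16.8 CPM, and no other neutrophil marker exceeded 0.711 CPM. In the second experiment Csf3r had a median of 5.60 CPM and the neutrophil sum 6.32 CPM over the 18 tumors. The part of the number of these cells in the receptor levels was not tested.

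Interferon response genes moved as well. The 7 IFN-γ response genes (Irf1, Gbp2, Gbp3, Cxcl9, Cxcl10, Ciita and Socs1) were all above 0 over the 3 times (50.3% of all genes). Of the 7, 6 had an unadjusted p under 0.05 (3.72% of all genes higher) and 0 passed adjustment, with a median of 1.06. Their summed level was 135 to 2445 CPM after antibody and 166 to 632 CPM in Ctrl. In KO tumors all 7 were lower after antibody with an unadjusted p under 0.05, as were 28.8% of all genes. Cxcl9 (-2.53, edgeR adjusted p = 0.0132), Gbp2 (-2.23, edgeR adjusted p = 0.0236) and Irf1 (-1.20, edgeR adjusted p = 0.0300) fell past the adjusted threshold, which 1.64% of all genes passed in either direction. The sum of the 7 there was 168 to 326 CPM after antibody and 299 to 754 CPM in Ctrl, on the same side as Fcgr4. In untreated tumors all 7 were above 0 in KO against WT, as were 67.1% of all genes, with 3 past adjustment (0.584% of all genes were called higher), namely Cxcl9 (3.84, edgeR adjusted p = 0.00970), Gbp2 (3.27, edgeR adjusted p = 0.0172) and Irf1 (1.48, edgeR adjusted p = 0.0410). The summed level was 349 CPM in KO Ctrl replicate 1, the library of high background, and 299 and 754 CPM in the other KO Ctrl tumors, all above the 173 to 198 CPM of WT Ctrl. The 6 type I interferon response genes (Isg15, Ifit1, Ifit3, Oasl2, Mx1 and Rsad2) were summed too. Over D0, D1 and D3 their sum had a median of 524 CPM after antibody and 356 CPM in Ctrl, with overlapping ranges. In KO tumors it was 179 to 393 CPM after antibody and 344 to 559 CPM in Ctrl, also on the side of Fcgr4.

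Across tumors, the level of each member was then related to the mean log2 level of the macrophage list and of the IFN-γ list. These were 24 relations with 100000 permutations each, two-sided. Relations with the type I interferon list were not tested. Points of a relation share their library and its depth, and the tumors of an experiment are pooled over its conditions, so r after subtracting each condition's mean is given too. Fcgr2b followed the macrophage list, with r = 0.892 and rho = 0.834 over the 30 tumors of the first experiment (permutation p = 1e-05 each, the smallest these permutations can give, adjusted p = 2.4e-05 and 3e-05), r = 0.842 without the 2 tumors farthest from the median and r = 0.839 within conditions. In the second experiment it was r = 0.928 and rho = 0.926 over 18 tumors (permutation p = 1e-05 each), r = 0.857 without 2 tumors and r = 0.939 within conditions. With the IFN-γ list Fcgr2b had r = 0.0271 and 0.0858 (permutation p = 0.889 and 0.731) and rho = 0.0389 and 0.0361, and within conditions r was -0.148 and 0.507.

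Fcgr4 showed the other pattern. With the IFN-γ list it had r = 0.860 and rho = 0.765 in the first experiment (permutation p = 1e-05 each, adjusted p = 2.4e-05 and 3e-05), r = 0.766 without the 2 farthest tumors and r = 0.880 within conditions. In the second experiment r was 0.700 (permutation p = 0.00095, adjusted p = 0.0019) and rho 0.651 (permutation p = 0.00409, adjusted p = 0.00818), with r = 0.535 without 2 tumors and r = 0.587 within conditions. With the macrophage list r was 0.283 and 0.392 (permutation p = 0.130 and 0.108) and rho 0.319 and 0.267, and r in the second experiment was 0.0210 without 2 tumors and 0.758 within conditions. Pooled and within-condition values therefore differed in the second experiment. Within conditions there, r with the IFN-γ list was also 0.507 to 0.595 for Fcgr1, Fcgr2b, Fcer1g and Fcgrt and 0.360 for Fcgr3, so Fcgr4 did not stand apart from them by that measure.

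**Figure D5:**
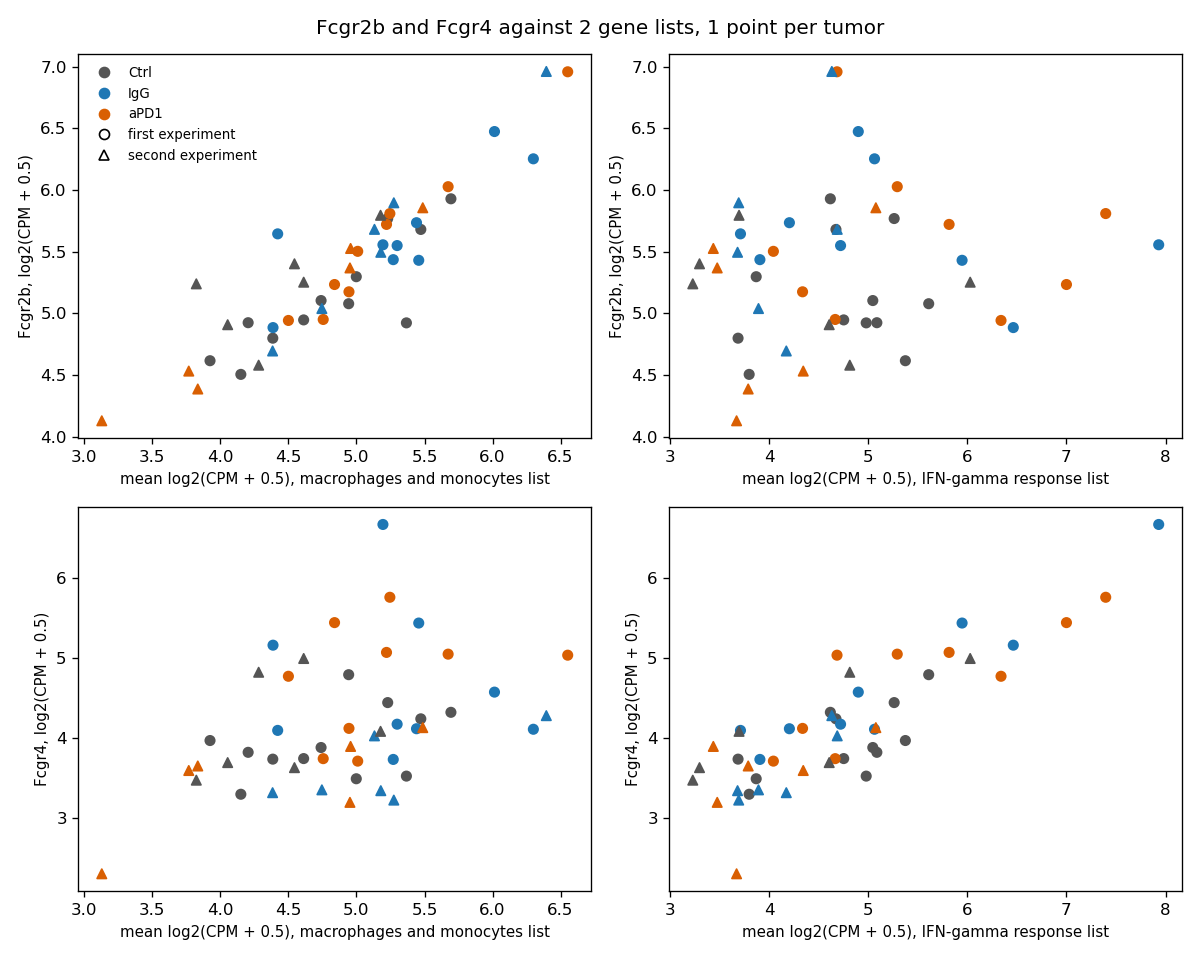
Level of Fcgr2b (top) and Fcgr4 (bottom), as log2 of CPM plus 0.5, against the mean of the same quantity over the macrophage list (left) and the IFN-γ list (right), with circles for tumors of the first and triangles for those of the second experiment. Fcgr2b rises with the macrophage list (r = 0.892 and 0.928) and Fcgr4 with the IFN-γ list (r = 0.860 and 0.700).

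Fcgr3, Fcer1g and Fcgrt had values with the macrophage list near those of Fcgr2b. With the macrophage list, Fcgr3, Fcer1g and Fcgrt had r of 0.893, 0.845 and 0.908 in the first experiment and 0.903, 0.929 and 0.915 in the second (permutation p = 1e-05 each), rho of 0.847, 0.830 and 0.883 and of 0.868, 0.882 and 0.909 (permutation p of 2e-05 or less), and r of 0.789 or more without 2 tumors. Fcgr1 had r = 0.669 (permutation p = 8e-05, rho = 0.641) and 0.927 (permutation p = 1e-05, rho = 0.884) with it. With the IFN-γ list Fcgr1 had r = 0.511 in the first experiment (permutation p = 0.00405, adjusted p = 0.00748, rho = 0.488), r = 0.411 without 2 tumors, and r = 0.306 in the second (permutation p = 0.217). Fcer1g had r = 0.413 (permutation p = 0.0230, adjusted p = 0.0394, rho = 0.402 with adjusted p = 0.0485), which was 0.254 without 2 tumors, and r = 0.383 (permutation p = 0.116). Fcgr3 and Fcgrt had r between -0.140 and 0.255 with this list (permutation p of 0.300 or more). Whether the relations differ between members was not tested.

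The members can also be placed by the genes whose level was most like theirs among 14795 genes, by the mean of Spearman's rho over the 30 and the 18 tumors, given without a test. For Fcgr1 these were Apobec1 (mean rho 0.922), the interferon regulatory factor gene Irf7 (0.919) and Ifi209 (0.909). For Fcgr3 they were Syk (0.893), the complement gene C1qb (0.891) and Ly86 (0.891), and for Fcgr2b they were the complement receptor gene C3ar1 (0.909), C1qb (0.908) and Plek (0.898). Fcer1g was most like Ly86 (0.941), Cybb (0.935) and Oasl1 (0.927), and Fcgrt most like Prelp (0.923), the macrophage growth factor receptor gene Csf1r (0.920) and Folr2 (0.914). Fcgr4 had the lowest values, with Phf11d (0.850), Parp9 (0.823) and the major histocompatibility gene H2-T22 (0.810). Among the members, Fcgr2b and Fcgr3 had a rho of 0.907 and 0.779 in the 2 experiments and Fcgr1 and Fcer1g one of 0.887 and 0.845, while Fcgr4 and Fcgrt had 0.130 and 0.110.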

How the data were processed

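RNA was measured in 48 mouse tumors by strand-specific sequencing. According to the methods, the authors trimmed adapters (cutadapt 1.8.1), aligned reads to mm10 with STAR 2.7.7a and estimated counts per gene of GENCODE vM21 with RSEM 1.3.0. The deposited values are whole-number counts per gene without normalization. The table's name refers to another counting program, and the values do not show which was used. For either experiment alone, a model was fitted in R 4.3.3 with edgeR 4.0.16 (TMM, 1 coefficient per condition, quasi-likelihood F-test, filterByExpr with a minimum count of 10, Benjamini-Hochberg over all genes, threshold 0.05), on 26848 genes with 20 residual degrees of freedom and 30837 with 12. CPM uses TMM-adjusted totals, and CPM per kb divides by the exonic length in vM21. The chi-square per gene between tumors of the same condition was 12.0 or more, so no library was a copy of another in its condition. Pairs across conditions were not compared in this way.

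The members and lists were chosen with earlier results of these data known. The named genes are the 6 members, any list gene past the threshold in an antibody comparison, Syk, Inpp5d, Ptpn6, Tyrobp, Trim21 and B2m, and 3 genes most like each member. Lcp2, Pik3r5, Cybb and Lyn, the upstream sequences and the motifs were chosen after values were seen. Alternatives were DESeq2 size factors, the Wald test of DESeq2 1.42.0, no filter, a replicate block, only the groups compared, Fcgr2b and Fcgr3 summed, the background subtracted or as a covariate (1502 receptor genes, 5506.1 kb of exons), the 3 high-background libraries left out, and each tumor left out. The fits were tested on data simulated from the first experiment, with less spread between tumors than the real data and no libraries of high background. That test therefore does not show how the fits behave on these tumors. Results for 1 gene of the IFN-γ response list and 1 motif are not reported here, and that list's values were computed without that gene. Python 3.11.15, numpy 2.4.6, pandas 2.3.3, scipy 1.17.1 and matplotlib 3.10.9 made permutations, tables and figures.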

Additional observations from a re-analysis of the deposited data

How the results depend on the processing

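The number of members called was 0 in every comparison reported. With no filter on low counts it was 1 over the 3 times together (Fcgr4, 0.94, edgeR adjusted p = 0.0288) and 2 in KO (Fcgr4, -1.16, edgeR adjusted p = 1.24e-05, and Fcgrt, 0.81, edgeR adjusted p = 0.00198). In KO it was 1, Fcgr4, with DESeq2 size factors, with DESeq2's Wald test and with the background subtracted, and 0 to 1 when each tumor was left out. No filter also called 4 members in aPD1 against IgG in WT (Fcgr2b, Fcgr3, Fcer1g and Fcgrt), 2 in IgG against Ctrl in WT (Fcgr3 and Fcer1g), 2 each in IgG and in aPD1 against Ctrl in KO (Fcgr4 and Fcgrt), and 1, Fcgr4, in IgG against Ctrl at D1 (1.70, edgeR adjusted p = 0.0274) and in the difference between KO and WT. The share of all genes called with no filter is not given here, so counts with no filter cannot be read as particular to the members. The Wald test called 1, Fcgr4, in aPD1 against Ctrl in KO. With 1 tumor left out the number was 0 to 3 in aPD1 against IgG in WT, and 0 to 1 in aPD1 against Ctrl in KO and in the difference between KO and WT. In every other comparison and alternative it was 0. Fcgr4 in KO was called in 11 of 18 fits that left out 1 tumor, with a log2 difference from -1.52 to -0.95. Of these calls, 8 came from the 9 fits without a WT tumor, which is not part of that comparison. Only 3 came from the 9 fits without a KO tumor. The edgeR adjusted p of Fcgr4 in KO was 0.0701 with the replicate block and 0.711 with the background as a covariate. Estimates near 0 changed sign: in antibody against Ctrl with the replicate block, Fcgrt at D0 was -0.066, Fcgr2b in WT -0.015, Fcgr4 in WT -0.063 and Fcgr1 in KO 0.11. With no filter Fcgr4 in WT was -0.047, Fcgr1 in KO 0.045 and Fcgr3 in KO 0.018. With the background as a covariate Fcgrt at D0 was -0.11, Fcgr4 in WT -0.14 and Fcgr3 in KO 0.18, and Fcgr3 in KO was 0.21 summed with Fcgr2b and 0.25 without the high-background libraries. With 1 tumor left out, the estimates that changed sign ran from -0.10 to 0.57 (Fcgr3) and -0.18 to 0.18 (Fcgrt) at D0, from -0.0089 to 0.79 (Fcgr1), -0.33 to 0.24 (Fcgr2b), -0.20 to 0.19 (Fcgr4), -0.10 to 0.78 (Fcer1g) and -0.16 to 0.44 (Fcgrt) in WT, from -0.35 to 0.57 (Fcgr1) and -0.36 to 0.24 (Fcgr3) in KO, and from -0.12 to 0.46 for Fcgr4 in aPD1 against IgG in WT. The cause of these changes was not tested. Of 964 alternative values, 41 changed sign and 26 passed a threshold that the reported value did not. Replicate numbers did not pair the tumors: deviations of same-numbered tumors had a median correlation of -0.0265 over 65 pairs in the first experiment and -0.0188 over 36 pairs in the second, and 0 of 30 and 1 of 18 tumors correlated best with their own number. The coefficient of variation between tumors of a condition, 0.671 and 0.786 in the 2 experiments, limits what 3 tumors can show.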
